A study of Homo sapiens with 16 samples.

Results

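The RNA that a 2nd extraction recovered from the interphase was compared with the RNA of a heated total extraction in HEK293 cells held under hyperosmotic stress, by the readthrough transcripts each preparation contained. This comparison took in 4 of the 16 libraries of the series, namely both replicates of the SERIPH 2nd-step fraction and both of hiAGPC, with the lists of readthrough regions called in each. The 4 lists named 3047 of the 3505 genes with a readthrough region anywhere in the series. A readthrough level in fragments per kilobase, scaled to the reads of the library (FPKM), was given for 3139 genes, in all 16 libraries.

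HEK293 is a line from human embryonic kidney, and the labels gave the cells as wild type (WT). All 4 libraries came from cells kept for 9 h in medium with 200 mM sorbitol, which draws water from the cell, and 100 µg/mL cycloheximide, which blocks translational elongation. No library had only one of these agents, so their contributions cannot be told apart. For hiAGPC the whole acid guanidinium-phenol-chloroform lysate was heated before phase separation. For SERIPH the aqueous phase was first taken off as the 1st-step fraction, and the interphase was then washed, heated at 55 °C for 10 min and extracted again, which gave the 2nd-step fraction. The labels gave an RNA input of 5 to 50 ng for SERIPH 2nd-step libraries and 100 to 500 ng for 1st-step libraries, and no input for hiAGPC. The same 4 preparations of untreated cells and the stressed 1st-step and conventional (unheated) preparations, each with 2 biological replicates, are given below only beside these libraries. The files analysed held no gene expression, so the identity of the cells could not be checked against marker genes, and the depth of each library was unknown.

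Downstream-of-gene (DoG) transcripts form when RNA polymerase II runs past the cleavage and polyadenylation site of a gene and transcription fails to terminate. They are continuous with the transcript of the gene upstream, remain in the nucleus near chromatin, and are known to be induced by osmotic stress, heat shock and viral infection. Semi-extractable RNAs are RNAs that stay with protein at the interphase of a standard extraction and are released by heating or shearing, and many DoGs behave in this way.

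DNA from the region start is shown for 2 DoGs among those with the largest log2 fold changes and 3 among the lowest. It is given because base composition moved with the fold change between the preparations, as described below. In GENCODE v44 the HSD17B12 gene ends at 43856617, ahead of the start of its region at 43857742. Each line gives the first 150 bases of the region on the transcribed strand, read from GRCh38. CDK10, which had the largest fold change, was passed over because the start of its region overlaps an annotated untranslated region. Capitals were to mark AATAAA, the canonical polyadenylation signal, searched on the transcribed strand alone. The letters were in none of the 5 windows, and in 6.51% of the 3135 windows of this kind that could be read, so the sequences below are all in lower case.
ENSG00000293510.2 (chr16:90002162-90002311, plus strand): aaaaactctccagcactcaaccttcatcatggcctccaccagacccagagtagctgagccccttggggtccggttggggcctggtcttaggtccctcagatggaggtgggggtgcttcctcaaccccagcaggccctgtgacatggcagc
YWHAE (chr17:1344125-1344274, minus strand): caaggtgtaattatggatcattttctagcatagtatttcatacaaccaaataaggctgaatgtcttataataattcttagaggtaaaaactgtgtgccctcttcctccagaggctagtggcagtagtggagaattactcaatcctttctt
SERINC1 (chr6:122443198-122443347, minus strand): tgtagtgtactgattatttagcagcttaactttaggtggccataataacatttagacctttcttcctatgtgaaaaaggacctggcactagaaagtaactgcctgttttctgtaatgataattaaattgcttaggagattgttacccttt
TET1 (chr10:68694587-68694736, plus strand): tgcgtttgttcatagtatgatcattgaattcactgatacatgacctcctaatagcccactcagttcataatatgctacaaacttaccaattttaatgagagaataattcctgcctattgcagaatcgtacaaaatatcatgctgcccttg
HSD17B12 (chr11:43857742-43857891, plus strand): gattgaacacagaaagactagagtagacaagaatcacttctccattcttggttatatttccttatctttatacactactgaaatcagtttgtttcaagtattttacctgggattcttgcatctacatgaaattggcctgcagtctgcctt
The first 2 of these were higher in the SERIPH 2nd-step fraction, and the last 3 were lower. Bases G and C made up 60.7% and 36.7% of the first 2 windows, and 34.7%, 36.0% and 36.0% of the last 3. YWHAE was poor in G and C at its start only, since 53.9% of its whole 325 kb region was G or C.

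The first question was which DoGs each preparation detected. Calling in single libraries listed 2387 and 2449 genes in the SERIPH 2nd-step libraries and 1789 and 1747 in the hiAGPC libraries, a ratio of the means of 1.37. The lists of the 2 preparations did not overlap in number, but with 2 libraries against 2 the two-sided exact permutation test cannot give a p below 0.33, which was the value obtained. The same calling in untreated cells listed 689 and 667 genes in the 2nd-step fraction and 486 and 478 in hiAGPC.

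A total of 507 genes were listed in both 2nd-step libraries and in neither hiAGPC library. They had reads in hiAGPC as well. Among the 499 with FPKM the median level was 0.80 in the 2nd-step fraction and 0.435 in hiAGPC. Their median log2 fold change was 0.79, against 0.52 over all 3139 DoGs. The class was selected by calls in the same libraries, so a higher fold change is partly set by the selection. Their regions were short, with a median of 20.0 kb. The genes with the highest 2nd-step FPKM in this class were ATAD3B, which encodes a mitochondrial membrane ATPase, FGF22, a fibroblast growth factor, BAIAP2, an adaptor of the actin cytoskeleton, CDC27, a subunit of the anaphase-promoting complex, and RBM20, a splicing regulator. For ATAD3B the 2 SERIPH 2nd-step libraries gave 2.89 and 2.82 FPKM and the 2 hiAGPC libraries 1.53 and 1.43. For FGF22 the values were 2.51 and 2.33 FPKM against 1.36 and 1.19. For RBM20 they were 2.04 and 2.15 FPKM against 1.78 and 1.79. The preparations did not overlap for any of these 3, and RBM20, whose log2 fold change of 0.22 ± 0.11 (SE) had an adjusted p of 0.0858 in limma, was absent from both hiAGPC lists. RBM20 stood at -0.26 after centering. On the same strand the ATAD3B region reached ATAD3A, that of FGF22 an unnamed gene, and that of RBM20 PDCD4, SHOC2 and ADRA2A. Reads of those genes may count toward the levels in both preparations.

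The converse class held 131 genes, listed in both hiAGPC libraries and in neither 2nd-step library. FPKM was given for 40 of them, and for 30.5% of this class against 98.4% of the class found with SERIPH alone. Of the genes each hiAGPC library listed, 211 had no FPKM, against 116 and 76 in the 2nd-step libraries, so the levels below cover fewer of the genes found with hiAGPC. In the 40 genes the median level was 0.402 FPKM in the 2nd-step fraction, 0.718 in hiAGPC and 0.818 in the conventional preparation. That hiAGPC exceeded the 2nd-step fraction is here, too, partly set by the selection. The highest in hiAGPC were BRCC3, a deubiquitinase of the DNA damage response, TET1, a dioxygenase that oxidizes 5-methylcytosine, HUS1, part of the 9-1-1 DNA damage clamp, THOC5, a subunit of the mRNA export complex THO, and PBDC1. HUS1 had 0.36 and 0.46 FPKM in the 2nd-step libraries and 1.5 and 1.58 in hiAGPC. THOC5 had 0.48 and 0.38 against 1.42 and 1.53. Both were lower in the 2nd-step fraction, with log2 fold changes of -1.69 ± 0.11 and -1.58 ± 0.11 (SE, n = 2 libraries per group; limma adjusted p = 1.0e-06 and 1.13e-06), and both were higher still in the aqueous fractions, at 3.44 and 3.28 FPKM in the 1st step.

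The second question was how the levels differed. FPKM was compared as log2(FPKM + 0.1), which understates differences of low values, by limma on all 16 libraries. A DoG was called at a Benjamini-Hochberg adjusted p under 0.05 together with a log2 fold change of at least 1 in size. Of 3139 DoGs tested, 217 were called higher in the SERIPH 2nd-step fraction (6.91%) and 55 were called lower (1.75%). Both 2nd-step libraries lay above both hiAGPC libraries for 2489 DoGs (79.3%) and below them for 243 (7.74%). FPKM is relative to the other reads of a library, so more DoG RNA and less of other RNA cannot be told apart. With each library centered on its own median, 0 DoGs were called higher and 116 lower by limma, with 1617 at an unadjusted p under 0.05, so the calls of higher DoGs rest on the common shift of 0.52.

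**Figure D1:**
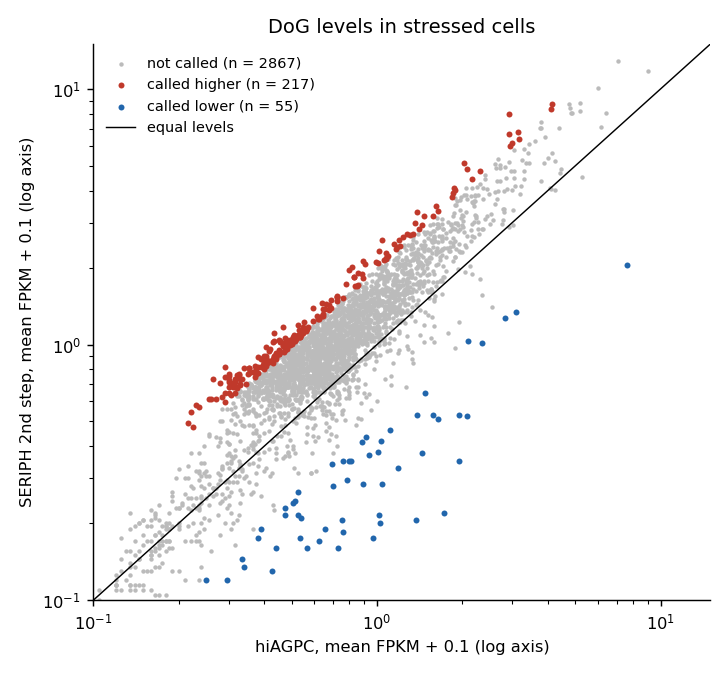
Mean level of each of 3139 DoGs in hiAGPC (x) and in the SERIPH 2nd-step fraction (y) in stressed cells, as FPKM + 0.1 on log axes; each point is a DoG, averaged over 2 libraries per preparation, and the line marks equal levels. Most points lie above the line, the 217 called higher form the upper edge of that cloud, and the 55 called lower lie below the line.

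The DoGs with the largest rise among those listed in both 2nd-step libraries came from CDK10, a cyclin-dependent kinase, the gene listed as ENSG00000293510.2, TBXA2R, the thromboxane A2 receptor, YWHAE, the 14-3-3 epsilon protein, APOL4, an apolipoprotein L, NAA60, an N-terminal acetyltransferase, KDF1, a keratinocyte differentiation factor, and HDGFL2, a chromatin-associated protein. CDK10 had 8.07 and 7.76 FPKM in the 2nd-step libraries and 3.01 and 2.61 in hiAGPC. YWHAE had 5.17 and 4.91 against 2.05 and 1.79. HDGFL2 had 1.91 and 1.92 against 0.74 and 0.69. In each the preparations were far apart and the replicates close together. Over the 8 genes the log2 fold change ran from 1.31 for HDGFL2 (SE 0.08, limma adjusted p = 1.0e-06) to 1.46 for CDK10 (SE 0.12, adjusted p = 2.15e-06).

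These 8 DoGs were of unlike size. APOL4, TBXA2R and NAA60 had regions of 10.0 kb at between 0.57 and 0.72 FPKM in the 2nd-step libraries, and hiAGPC listed none of these 3. HDGFL2 was listed over 135 and 125 kb in the 2nd-step libraries and over 40.0 kb in each hiAGPC library. For CDK10 all 4 libraries listed the same 15.0 kb. A higher level came with a longer region in HDGFL2 and with the same length in CDK10. APOL4, TBXA2R, NAA60, KDF1 and ENSG00000293510.2 were listed in the 2nd-step fraction and not in hiAGPC. In YWHAE the higher level came with a shorter region, of 110 kb in both 2nd-step libraries against 325 and 310 kb in hiAGPC.

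The most abundant DoGs of the 2nd-step fraction were those of RCC1, the exchange factor of the GTPase Ran, ZNF207, a mitotic spindle protein, the gene listed as ENSG00000170846, YBX1, an RNA-binding cold shock protein, SRSF1, a splicing factor, and ZNF276, a zinc finger gene. RCC1 had 13.2 and 12.3 FPKM in the 2nd-step libraries and 7.2 and 6.75 in hiAGPC, with 1.28 in the 1st step. ZNF207 had 11.7 and 11.5 against 8.96 and 8.95, with 2.76 in the 1st step. SRSF1 had 8.56 and 8.72 against 4.76 and 4.58, with 0.885 in the 1st step. All 6 were higher in the 2nd-step fraction at an adjusted p under 0.05, but ZNF276 alone passed a log2 fold change of 1 (1.07 ± 0.12, SE, limma adjusted p = 1.07e-05), a call it lost at 0.84 with the correction for GC content described below. For RCC1, ZNF207 and CDK10 the region was equally long in all 4 libraries. The regions of all 6 abundant DoGs reached other genes on the same strand, whose reads may count toward these levels. ZNF207 fell to -0.11 after centering, which turned its direction.

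**Figure D2:**
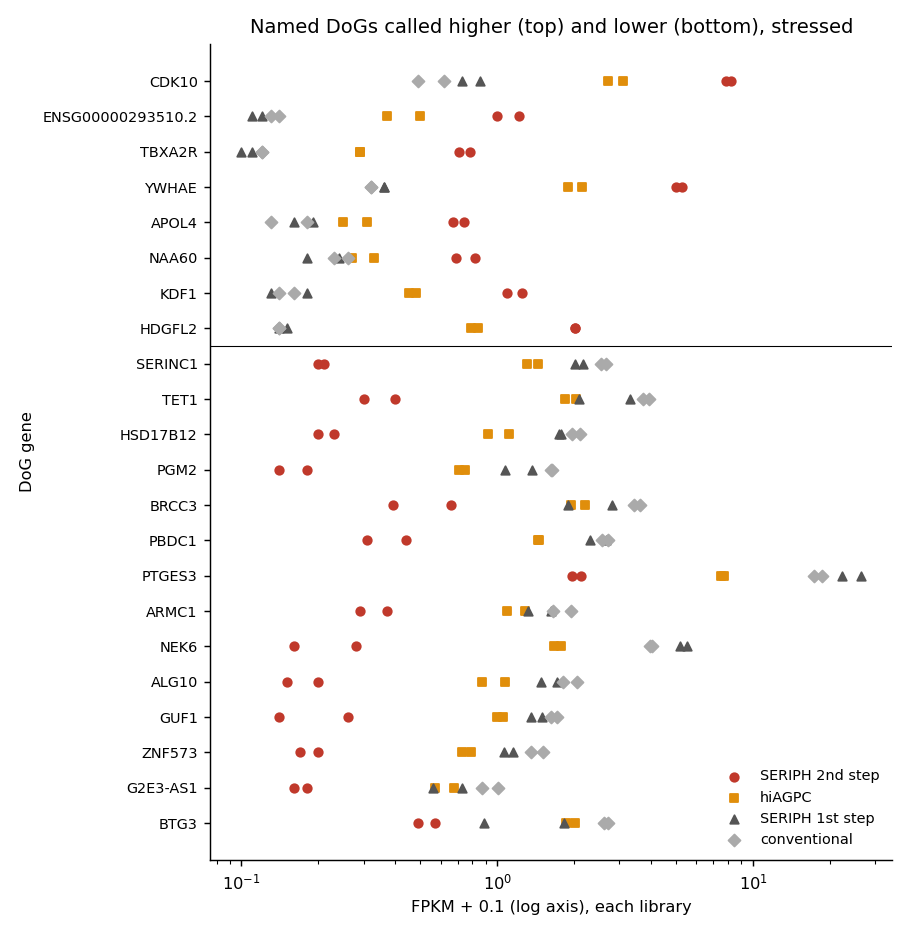
FPKM + 0.1 (log axis) of DoGs ranked by fold change, 8 called higher above the line and 14 called lower below it. Each symbol is a library, with 2 libraries for each of the 4 preparations of stressed cells. In the upper rows the aqueous preparations (conventional and SERIPH 1st step) are lowest and the 2nd-step fraction highest; in the lower rows the order is turned, and hiAGPC lies between the 2 SERIPH fractions in most rows.

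By adjusted p alone 149 DoGs were lower. The 55 called lower were those of them with a log2 fold change of at least 1 in size, so the threshold sets this group. Those with the lowest fold changes among DoGs listed in both hiAGPC libraries came from SERINC1, a serine incorporator of membranes, TET1, HSD17B12, an enzyme of fatty acid elongation, PGM2, a phosphopentomutase, BRCC3, PBDC1, PTGES3, the p23 co-chaperone, and ARMC1. SERINC1 had 0.11 and 0.10 FPKM in the 2nd-step libraries and 1.34 and 1.21 in hiAGPC. TET1 had 0.20 and 0.30 against 1.74 and 1.94. PGM2 had 0.08 and 0.04 against 0.65 and 0.61. In all 8 the 2nd-step libraries were below both hiAGPC libraries. The log2 fold changes of the 8 ran from -2.74 for SERINC1 (SE 0.11, limma adjusted p = 7.55e-08) to -1.85 for ARMC1 (SE 0.14, adjusted p = 1.68e-06).

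The aqueous fractions held more of these transcripts. The 1st-step mean was 1.99 FPKM for SERINC1, 2.59 for TET1 and 1.12 for PGM2, and the conventional mean was 2.51, 3.73 and 1.53. PTGES3 was the most abundant, with 2.02 and 1.86 FPKM in the 2nd-step libraries, 7.59 and 7.40 in hiAGPC and a 1st-step mean of 24.3. Its region reached into ATP5F1B, a neighboring gene for a subunit of ATP synthase on the same strand, whose own reads may count toward the level, and TET1 and ARMC1 each reached an unnamed gene. No such gene lay in the regions of SERINC1, HSD17B12, PGM2, BRCC3 and PBDC1.

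A further 29 of the 55 DoGs called lower were listed in none of the 4 libraries and owed their region to another library of the series. The lowest outside the genes listed in both hiAGPC libraries, BTG3 in one of them and the others in neither, were NEK6, a mitotic kinase, ALG10, a glucosyltransferase of N-glycan synthesis, GUF1, a mitochondrial translation factor, ZNF573, G2E3-AS1 and BTG3, an antiproliferative factor. NEK6 had 0.18 and 0.06 FPKM in the 2nd-step libraries, 1.57 and 1.67 in hiAGPC and 5.25 in the 1st step, a log2 fold change of -3.02 ± 0.19 between these preparations (SE, limma adjusted p = 1.0e-06). In GUF1 the 2nd-step libraries gave 0.04 and 0.16 FPKM and hiAGPC gave 0.95 and 0.90. BTG3 had 0.39 and 0.47 FPKM against 1.76 and 1.92. The 14 DoGs of these rankings of lowest fold changes kept their call after centering and after a correction for GC content that is described below.

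The levels in the other preparations differed between the calls as well. For the DoGs called lower this is partly set by selection. Of these, 29 were listed in none of the 4 libraries and owed their region to another library. The 55 DoGs called lower had a median of 0.18 FPKM in the 2nd-step fraction and 0.71 in hiAGPC, against 1.22 in the 1st step and 1.33 in conventional RNA. In the untreated cells their medians were 0.77 in the 2nd-step fraction and 1.39 in hiAGPC, and 45 of the 55 were listed in at least one library of untreated cells, against 21 of the 217 called higher and 811 of all 3139. The 217 called higher had medians of 0.935 and 0.39 FPKM in the 2nd-step fraction and hiAGPC, 0.095 in the 1st step, 0.07 in the conventional preparation and at most 0.06 in any preparation of untreated cells. Regions of 10 kb, the shortest the caller accepts, made up 63.6% of the DoGs called lower, 26.7% of those called higher and 21.4% of all. When the DoGs were split into 5 bins by conventional FPKM, 54 of the 55 called lower fell in the top bin, and the median log2 fold change went from 0.75 in the bottom bin to 0.25 in the top bin.

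Across DoGs, hiAGPC lay between the 2 SERIPH fractions. Its mean FPKM was strictly between the 1st-step and 2nd-step means for 2748 of the 3139 DoGs (87.5%), above both for 237 and below both for 120. Over the 2776 DoGs whose fractions differed by at least 0.2 FPKM, hiAGPC stood at a median of 0.56 of the way from the 1st-step to the 2nd-step level (quartiles 0.43 and 0.70). The share was 0.61 for the 147 DoGs with the higher level in the 1st step. The fractions of one lysate and the total extraction were scaled to their own libraries, so these positions are not shares of RNA.

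**Figure D3:**
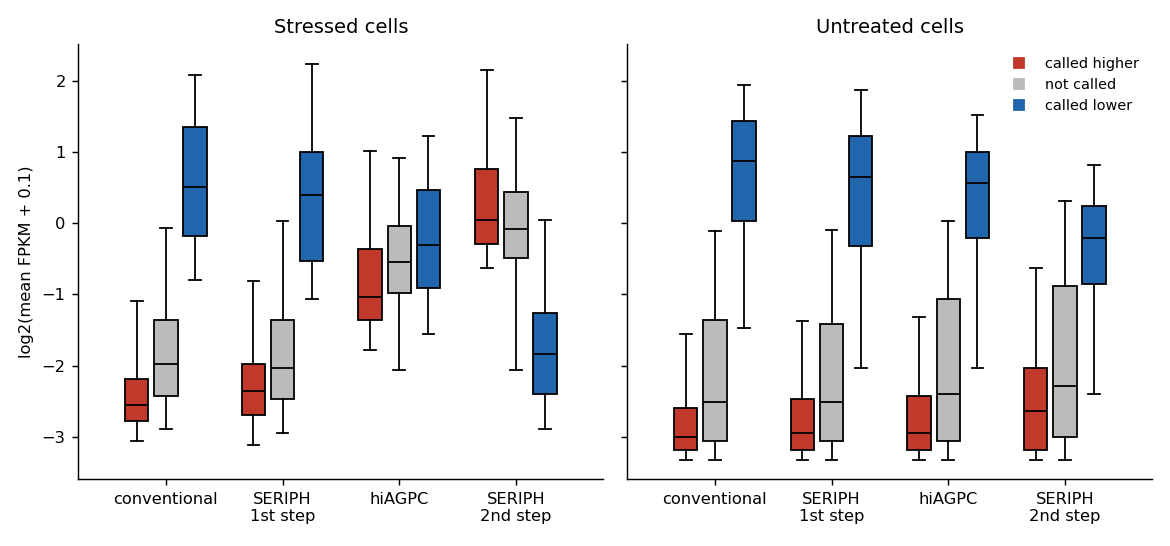
log2(mean FPKM + 0.1) of the DoGs called higher, called lower and not called between the 2nd-step fraction and hiAGPC of stressed cells, in each preparation of stressed (left) and untreated (right) cells; boxes give quartiles and median over DoGs, and whiskers the 5th and 95th percentiles. DoGs called lower are the highest of the 3 classes in both aqueous preparations and in untreated cells, and the lowest in the stressed 2nd-step fraction.

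Base composition moved with the difference between the preparations. The median GC content of the region was 53.9% in the 217 DoGs called higher, 40.6% in the 55 called lower and 45.6% in all. In 5 bins of 627 DoGs of rising GC content the median log2 fold change was 0.14, 0.38, 0.54, 0.76 and 0.85, with 0, 1, 5, 55 and 156 DoGs called higher and 28, 12, 9, 4 and 2 called lower. AATAAA was found 0.40 times per kb in the regions called higher and 1.00 times in those called lower, against 0.75 in all, a count that falls as GC content rises. The GC-rich chromosomes 19, 16, 17 and 22 had the largest shares of DoGs called higher, at 18.4%, 17.4%, 15.2% and 14.8%.

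Over the 3135 DoGs with a region the rank correlation (Spearman) of the log2 fold change with GC content was 0.69, and it was 0.70 over the 1838 DoGs that reached no other gene on their strand. These points share 4 libraries, and neighboring regions can overlap, so the value is a description without a test. It lay between 0.64 and 0.66 in each of the 4 pairs of a 2nd-step library with a hiAGPC library, and it was 0.16 and 0.25 for the difference of the replicates within the 2nd-step fraction and within hiAGPC. In untreated cells the same preparations gave 0.15 over all DoGs, 0.21 over the 948 with a mean of at least 0.3 FPKM and 0.34 over the 498 of these that reached no other gene. At that level the stressed value was 0.72 over 2842 DoGs.

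The relation was also present between libraries outside the comparison. The 1st-step fraction and the conventional preparation, which both hold RNA of an unheated aqueous phase, differed with a rank correlation with GC content of 0.61 in stressed and 0.53 in untreated cells, and of 0.76 in both conditions over the DoGs with a mean of at least 0.3 FPKM. Within each workflow it was weak, at 0.12 between the 2nd and the 1st step of SERIPH and 0.00 between hiAGPC and the conventional preparation in stressed cells. The part of GC content in the calls was assessed by one alternative, in which the GC trend of each library was subtracted by a lowess curve and the library's median level was kept. The median log2 fold change was then 0.60, 53 DoGs were called higher and 39 lower, and 30 and 37 of these were also called without the correction. The 8 DoGs with the largest rise remained called, at log2 fold changes of 1.02 to 1.24. Of the 29 DoGs called higher that the naming rules selected, 19 fell below a log2 fold change of 1 with the correction, and of the 24 called lower 2 did so. Whether GC content, or a property that goes with it, set the differences was not tested further.

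**Figure D4:**
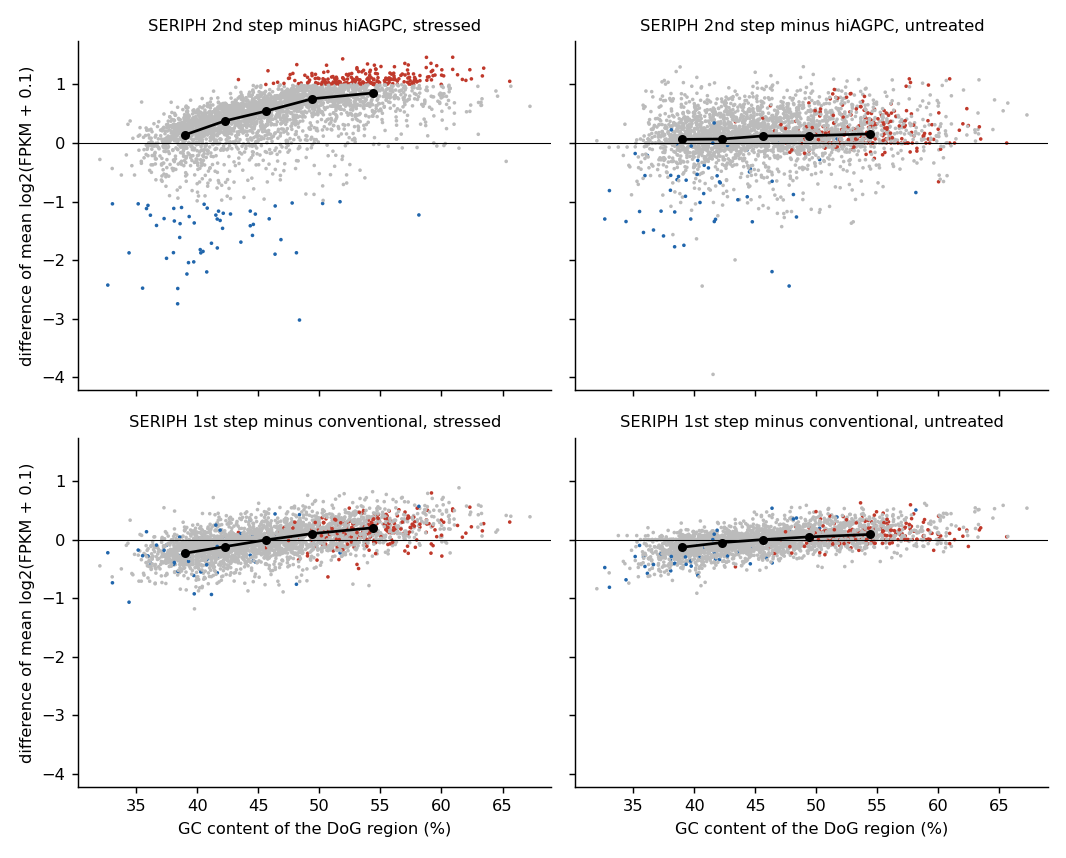
GC content of the DoG region (x, %) and difference of mean log2(FPKM + 0.1) (y) for 4 comparisons of preparations; each point is a DoG, colored red or blue where it was called higher or lower between the 2nd-step fraction and hiAGPC of stressed cells, and the black line joins the medians of 5 equal bins. The line rises from 0.14 to 0.85 at top left, lies between 0.06 and 0.16 at top right, and rises in both lower plots, which compare libraries of the aqueous phases.

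The third question was how far downstream each preparation followed the same DoGs. Of the 1290 genes listed in all 4 libraries, 593 had longer regions in both 2nd-step libraries than in either hiAGPC library, and 37 had shorter ones. The gap between the shorter 2nd-step and the longer hiAGPC region had a median of 25 kb in the 593 (quartiles 10.0 and 65.0 kb), reached 100 kb or more in 82 and was at most 510 kb. Of the 479 shared DoGs that reached no other gene on the strand, 179 had longer regions (37.4%, against 46.0% of all 1290), and their median gap was 15 kb. Reads of the genes that a region runs through may count toward its length. Regions of at least 100 kb numbered 452 in the 2nd-step fraction and 249 in hiAGPC among the shared genes.

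The length ratio across DoGs of different size depended on which length sorted them. In bins of hiAGPC length, which is also the denominator of the ratio, the median length ratio was 1.67 for the 157 DoGs of 10 kb in hiAGPC, 1.75 for those over 10 and up to 20 kb, 1.46 up to 50 kb, 1.24 up to 100 kb and 1.16 beyond. A region of 10 kb cannot be listed shorter, since the caller accepts no less, which holds the ratio of the first bin at 1 or more. In bins of the region used for FPKM, mostly the longest listed in any library, the order was turned, with a median ratio of 1 from 10 to 20 kb, 1.33 up to 50 kb, 1.46 up to 100 kb and 1.63 beyond. Neither length is independent of the ratio, so no trend with size is read from them. The share of DoGs with longer regions in both 2nd-step libraries was between 42.7% and 49.4% in the 5 bins of hiAGPC length. In 5 bins of GC content the median ratio was 1.12, 1.29, 1.43, 1.58 and 1.5.

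The largest gains without another gene on the strand were found past UBE2K, a ubiquitin-conjugating enzyme, COX18, a factor of cytochrome oxidase assembly, STAG3L4, ANP32A, a nuclear phosphoprotein, and ZKSCAN2-DT, a divergent lncRNA. UBE2K was listed over 200.0 and 195 kb in the 2nd-step libraries and over 30.0 and 20.0 kb in hiAGPC. ANP32A was listed over 185 and 190.0 kb against 70.0 and 30.0 kb. COX18 was listed over 320.0 and 380.0 kb against 200.0 and 35.0 kb, so its hiAGPC replicates differed by more than the gap between the preparations. The differences in level that came with these gains were unequal. ANP32A had 1.28 and 1.15 FPKM against 0.63 and 0.61, a log2 fold change of 0.87, and STAG3L4 had 1.09 and 1.10 against 0.60 and 0.60, a log2 fold change of 0.77, while ZKSCAN2-DT stood at 0.53, near the median of all DoGs. UBE2K had 1.64 and 1.60 FPKM against 1.29 and 1.25, a log2 fold change of 0.33 ± 0.08 (SE, limma adjusted p = 0.00343), and COX18 had 1.22 and 1.23 against 0.89 and 0.89 (0.42). After centering, UBE2K and COX18 stood at -0.15 and -0.062.

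The median log2 fold change was 0.18 over the 37 genes with shorter regions, 0.64 over those with longer ones and 0.53 over all shared genes. It was above 0 in 26 of the 37, against 582 of the 591 longer ones with FPKM. The 3 genes with the largest loss of length were all above 0. YWHAE was listed over 110.0 kb in both 2nd-step libraries and over 325 and 310.0 kb in hiAGPC, although its log2 fold change was 1.35, and its region reached the gene ABR. PYCARD-AS1 was listed over 55.0 kb in both 2nd-step libraries and over 268 and 323 kb in hiAGPC, at 7.57 and 7.14 FPKM against 3.78 and 3.60. DR1, the TBP-binding repressor, was listed over 75 kb against 220 kb, at 1.39 and 1.56 FPKM against 1.15 and 1.16, a log2 fold change of 0.33 that was -0.16 after centering. All 3 long hiAGPC regions ran through other genes on the same strand. FPKM was computed over one region per gene in every library, which was for 98.0% of DoGs the longest listed, so for these 3 it covers the hiAGPC length.

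**Figure D5:**
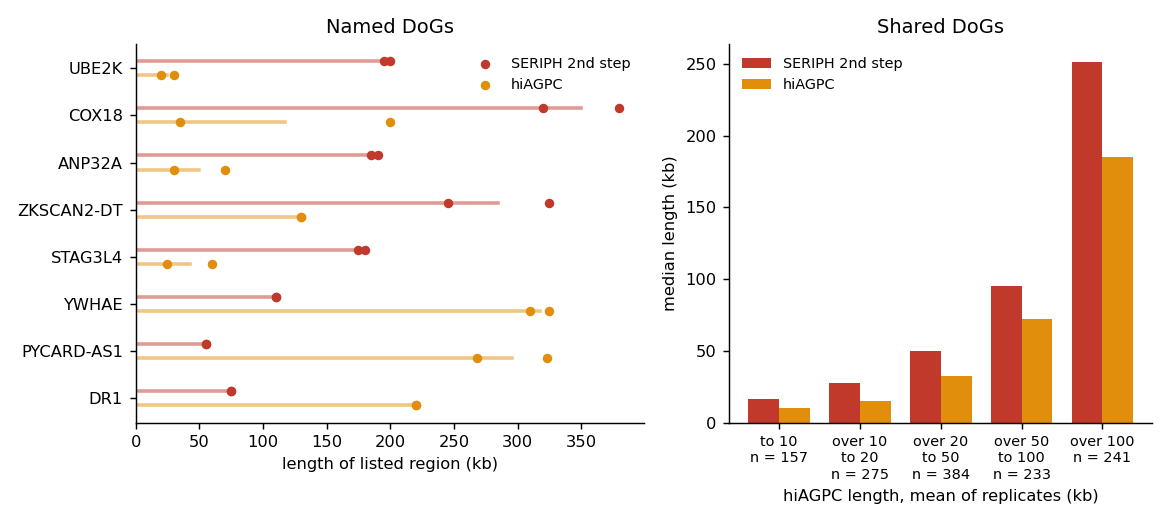
Length in kb of the listed DoG region in each library for 5 DoGs with the largest gain and 3 with the largest loss (left; points are libraries, lines run to the mean of 2) and median length of the 1290 shared DoGs in bins of their mean hiAGPC length (right). On the left YWHAE, PYCARD-AS1 and DR1 are longer in hiAGPC and the other 5 in the 2nd-step fraction; on the right the 2nd-step median is higher in every bin.

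DoGs were next grouped by the function of the gene upstream. In 17 lists of genes the share called higher is to be read against 6.91% of all DoGs, and the share called lower against 1.75%. The splicing factor and hnRNP list also held RBM genes and DDX and DHX helicase genes of other functions, such as DDX11. Among its 68 genes 6 were called higher and none lower, and the log2 fold changes had a median of 0.57. They included RBM5, with 2.56 and 2.37 FPKM in the 2nd-step libraries and 0.99 and 0.89 in hiAGPC (log2 fold change 1.30 ± 0.16, SE, limma adjusted p = 2.49e-05), and SNRPD3, a core Sm protein, with 0.76 and 0.66 against 0.25 and 0.23. With the correction for GC content RBM5 kept its call and SNRPD3 lost it, at 0.90. Among 34 chromatin genes 5 were called higher and 1, TET1, lower (median 0.60). Of the 5, CHD5 and NSD2 had the largest rises, and the correction for GC content left them at 0.89 and 0.82, not called. NSD2 was at 0.76 without SERIPH 2nd-step replicate 1, and CHD5 at 0.86 without replicate 2. The list of 19 termination and 3′ end processing genes, which also holds the polymerase subunit POLR2B, had a median of 0.52. In this list 1 gene was called higher, SUPT6H, with 1.43 and 1.45 FPKM against 0.59 and 0.65. SUPT6H was at 0.82 and not called with the correction for GC content.

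Genes of protein synthesis lay close to the rest. Of 43 cytosolic ribosomal protein genes 2 were called higher, with a median of 0.55, and RPL36 had 6.15 and 5.97 FPKM in the 2nd-step libraries against 3.01 and 2.77 in hiAGPC. Without hiAGPC replicate 2 the log2 fold change of RPL36 was 0.99, and with the correction for GC content it was 0.79, both under the threshold. Of 34 translation factor and tRNA synthetase genes 3 were called higher and 1 lower (median 0.41). The one called lower was GSPT1, the release factor eRF3a, at 1.33 and 1.15 FPKM against 3.04 and 2.96 (log2 fold change -1.21 ± 0.11, SE, limma adjusted p = 3.5e-06), whose region reached RSL1D1 on the same strand. Of 48 genes of mitochondrial ribosomes, respiration and import 2 were called higher and 2 lower, among them MRPL3 at 0.10 and 0.11 FPKM against 0.65 and 0.65. Their median was 0.43. Of 48 ubiquitin and proteasome genes 1 was called higher, with a median of 0.54.

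The lists nearest to the stress itself are small, and with 6.91% of all DoGs called higher few or no calls are due in them. The 6 osmotic stress genes had a median of 0.58 and the 21 heat shock and immediate-early genes a median of 0.33, and neither list had a DoG past the threshold. In the osmotic list both 2nd-step libraries were above both hiAGPC libraries in all 6, against 79.3% of all DoGs. The 27 histone genes had the lowest median of the 17 lists, 0.21, with 1 call, that of H3-3B, which encodes the replication-independent histone H3.3 (2.43 and 2.33 FPKM against 1.08 and 1.01), which was lost with the correction for GC content (0.86). Centering turned the medians of 6 lists below 0, among them the histone, heat shock, mitochondrial, translation factor, ZNF and cell cycle lists, while the correction for GC content left every list median between 0.45 and 0.69. The histone genes were then at 0.52, above the mitochondrial (0.45) and heat shock (0.46) lists, so their place as lowest did not hold.

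Zinc finger, solute carrier and cell cycle genes had 3, 4 and 4 DoGs called higher of 67, 39 and 54, and 2, 1 and 0 called lower, with medians of 0.45, 0.59 and 0.45. Among lncRNA genes, 11 of 127 antisense genes were called higher and 1, G2E3-AS1, was called lower, and 1 of 32 divergent genes was called higher. The 10 snoRNA host genes had a median of 0.73, and the 5 nuclear and imprinted regulatory lncRNAs had 0.70, with no call in either. The first was the highest of the 17 medians, but not with a pseudocount of 0.01, where the regulatory lncRNAs were at 0.81 and the host genes at 0.79, nor with the GC correction, where the osmotic list was at 0.69 and the host genes at 0.68.

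The last question was whether the difference between the preparations was the same without stress. In untreated cells 27 DoGs were called higher in the 2nd-step fraction than in hiAGPC (0.86%) and 46 lower (1.47%), around a median of 0.11 on the log2 scale. Of the DoGs called higher, 3 were so called in both conditions, which is 1.38% of the stressed and 11.1% of the untreated calls. Of the 217 called under stress, 138 were under 0.1 FPKM in both untreated preparations, where no log2 fold change of 1 can be reached with the pseudocount of 0.1, so the low overlap does not show that the preparations were alike without stress. Of those called lower, 18 were called in both, which is 32.7% and 39.1%. PTGES3 was one of these, with 1.24 and 1.47 FPKM in the untreated 2nd-step libraries against 6.63 and 6.46 in untreated hiAGPC. The difference between the 2 fold changes was called for 175 DoGs in the direction of a higher fold change under stress (5.58%) and for 36 in the other (1.15%). With each library centered these numbers were 28 and 121. The 175 had untreated medians of 0.03 FPKM in the 2nd-step fraction and 0.065 in hiAGPC, and 97 of them were under 0.1 in both, so for these the difference mainly restates the stressed fold change.

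A higher fold change under stress came in part from untreated cells. H4C4, H4C7 and H4C11, replication-dependent histone genes, had the largest differences with LLGL1, a cell polarity gene. H4C4 had 0.03 FPKM in both untreated 2nd-step libraries and 1.98 and 1.84 in untreated hiAGPC, while under stress it had 4.39 and 4.48 against 5.16 and 5.18. The difference between its log2 fold changes was 3.73 ± 0.14 (SE, limma adjusted p = 3.92e-08). Its region spans H1-2 and H2BC4, and those of H4C7 and H4C11 also hold histone genes on the same strand, so these levels may include mRNA of the neighbors. LLGL1 had 0.19 and 0.15 FPKM against 0.47 and 0.47 in untreated cells, and 2.08 and 2.00 against 1.17 and 1.09 under stress, so that the order of the preparations was turned. The LLGL1 region reached MIEF2 and SMCR8 on the same strand, whose reads may count toward these levels.

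In the opposite direction the largest differences were those of NEK6, ZFP14, BMS1P1, a pseudogene with close copies, whose level is uncertain because the authors kept uniquely mapped reads alone, and NEIL3, a DNA glycosylase. ZFP14 had 2.88 and 2.84 FPKM in the untreated 2nd-step libraries and 2.84 and 2.88 in untreated hiAGPC, and 0.19 and 0.18 against 0.75 and 0.84 under stress (difference -1.65 ± 0.14, SE, limma adjusted p = 3.12e-05). The ZFP14 region reached LINC00665 on the same strand, whose reads may count toward these levels. NEIL3 had 1.61 and 1.71 against 1.63 and 1.75 in untreated cells, and 0.06 and 0.09 against 0.39 and 0.48 under stress. The untreated libraries of the preparations overlapped for both DoGs, and all 4 stressed values were below the untreated ones. Over the 36 DoGs of this direction the median in the 2nd-step fraction was 0.915 FPKM in untreated and 0.08 in stressed cells, against 0.885 and 0.45 in hiAGPC.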

How the data were processed

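Stranded, rRNA-depleted libraries of HEK293 RNA were sequenced by the authors, who used fastp 0.25.0 for trimming, Bowtie2 2.5.4 against rDNA and STAR 2.7.11b for alignment to GRCh38. DoGs were called library by library with ARTDeco (minimum length 10 kb). The deposited FPKM values were computed by the authors over one region per gene for 3139 DoGs and rounded to 0.01. Which reads scale them is not given in the sources used here, and no counts could be recovered.

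FPKM was analysed as log2(FPKM + 0.1) with limma 3.58.1 (R 4.3.3), with an intensity trend and the 8 groups of 16 libraries as terms. Regions were joined to GENCODE v44 and GRCh38 in Python 3.11.15; 3495 of 3509 gene identifiers were found, and 4 DoGs had no region. Tested on simulated data, the model recovered 200 of 200 changed DoGs and called 0 of 2939 others. Those others were simulated with no difference between the preparations, so calls under a common shift, as in the real libraries, were not tested. The DoGs called higher in the real libraries had log2 fold changes of 1 to 1.46, and recovery within that range was not tested. Replicates are biological by their labels. Per the study's methods the extractions compared were run side by side on the same cell samples, so libraries of one replicate number may share cells. The replicate differences of the 2 preparations had a correlation of 0.02 over DoGs, and the replicate block is given as an alternative.

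Named DoGs were the 8 called higher with the largest fold change among those listed in both 2nd-step libraries, the 8 lowest called DoGs listed in both hiAGPC libraries and the 6 lowest others, the 6 most abundant, the 5 highest listed in one preparation only, the 5 largest gains and 3 largest losses of length, the 4 largest and 4 lowest differences between conditions, and up to 3 called members of each list. These rules, the lists and the comparison were chosen with earlier results of these data known. The split by GC content, the other bins and the GC correction (lowess span 0.667) were added after the values were seen. Alternatives are given in the closing section. Overlapping genes on one strand can share reads. The authors' own test results were not used here. The sequence of 1 region start is not reported here.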

Additional observations from a re-analysis of the deposited data

Results flagged for a closer look

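The log2 fold change from hiAGPC to the SERIPH 2nd-step fraction differed between stressed and untreated cells by limma's test of that difference. It was called higher under stress for 175 DoGs and lower for 36, out of 3139. Differences below are the stressed minus the untreated log2 fold change, each at a Benjamini-Hochberg adjusted p under 0.05.

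Among DoGs named for their stressed fold change, the difference was 1.29 for TBXA2R, 1.34 for APOL4, 1.33 for KDF1 and 1.03 for PYCARD-AS1. That of PYCARD-AS1 fell below the threshold of 1 without SERIPH 2nd-step replicate 1 (0.99) and without hiAGPC replicate 2 (0.999). In the 4 untreated libraries of these preparations APOL4 was listed at 0 FPKM, KDF1 at 0 to 0.01, TBXA2R at 0 to 0.03 and PYCARD-AS1 at 0.02 to 0.03, so these differences largely restate the stressed fold changes. The difference was -1.31 for TET1, -1.34 for PGM2, -1.76 for NEK6, -1.31 for ALG10, -1.13 for GUF1, -1.13 for ZNF573, -1.58 for G2E3-AS1 and -1.08 for THOC5. For GUF1 it was -0.68 without SERIPH 2nd-step replicate 1 (limma adjusted p = 0.0661) and -1.09 without hiAGPC replicate 1 (adjusted p = 0.0554), and for THOC5 it was -0.95 without SERIPH 2nd-step replicate 2.

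The largest differences were 3.73 for H4C4, 2.38 for H4C7, 1.89 for H4C11 and 1.88 for LLGL1, and the lowest beside NEK6 were -1.65 for ZFP14, -1.64 for BMS1P1 and -1.59 for NEIL3. Among called members of the gene lists it was -1.07 for MRPL3, a mitochondrial ribosomal protein, 1.82 for SLC39A3, a zinc transporter, 1.26 for CHD5, a chromatin remodeler, and 1.24 for MYRF-AS1. Of the 175 DoGs, 97 were under 0.1 FPKM in both untreated preparations, where a log2 fold change of 1 cannot be reached. With the correction for GC content the difference was under 1 in size for TET1 (-0.99), ALG10 (-0.88), GUF1 (-0.59), ZNF573 (-0.85), MRPL3 (-0.74), PYCARD-AS1 (0.93) and MYRF-AS1 (0.996). For CHD5 it was 0.86 without SERIPH 2nd-step replicate 2, and CHD5 and MYRF-AS1 were listed at 0 FPKM in the untreated libraries of both preparations.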

How the results depend on the processing

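Against 217 DoGs called higher and 55 lower, pseudocounts of 0.01 and 1 gave 402 and 2 higher and 86 and 5 lower. Centering each library on its median gave 0 and 116 by limma, with 1617 DoGs at an unadjusted p under 0.05, and the correction for GC content, chosen after seeing the data, gave 53 and 39. The adjusted p alone gave 2158 and 149. Among fewer DoGs tested, those that reach no other gene gave 128 and 31, and those reproducible in at least one of the preparations gave 22 lower. The median log2 fold change of 0.52 was 0.59 and 0.25 with the 2 pseudocounts, 0.53 at a mean of at least 0.1 FPKM, 0.037 after centering, 0.59 over reproducible DoGs, 0.48 over those that reach no other gene and 0.60 with the GC correction.

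The 211 DoGs whose fold change differed between the conditions became 1 with a pseudocount of 1, 96 among DoGs that reach no other gene and 140 with the GC correction. The 265 genes reproducible in hiAGPC alone became 131 when no 2nd-step library was allowed to list them, and a minimum length of 20 kb left 162 of this kind and 859 shared genes in place of 1290. The median length ratio of 1.36 was 1 for the shorter 2nd-step over the longer hiAGPC region, 1.21 without other genes on the strand and 1 where replicates had equal lengths. Leaving out one library at a time moved it between 1.21 and 1.46, the lowest being without SERIPH 2nd-step replicate 2. Leaving out one library moved the DoGs called higher between 169 and 317, those called lower between 51 and 60 and the ratio of listed genes between 1.35 and 1.39. A replicate block left 217 and 55 calls, and changed no other call among the results given.

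After centering, the log2 fold change turned negative for ZNF207 (-0.11), RBM20 (-0.26), UBE2K (-0.15), COX18 (-0.062) and DR1 (-0.16), as did the medians of the histone (-0.27), translation factor (-0.069), mitochondrial (-0.050), zinc finger (-0.029), cell cycle (-0.031) and heat shock (-0.15) lists. With the GC correction H4C4, H4C7 and H4C11 turned positive, at 0.037, 0.25 and 0.043. The same correction took the call of 19 of the 29 DoGs called higher that the naming rules selected and of 2 of the 24 called lower, COX15 and ZNF724. The cause of these changes was not tested. FPKM rounded to 0.01 and an unknown depth limit what low levels can show, each group had 2 libraries, and 328 genes of the 4 lists had no FPKM.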
